A study of Mus musculus with 12 samples.

Results

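The genes described here are 31 that make fatty acids and sterols or control that synthesis, chosen by symbol from a count table of 30743 genes or transcripts. They cover 6 genes of fatty acid synthesis, 7 of elongation and desaturation, Gpam of glycerolipid entry, 5 SREBP factors and their controls, 6 of the mevalonate and isoprenoid steps and 6 that lead from squalene to cholesterol or move sterols. All 31 were found in the table and all 31 passed the filter on low counts. Together they took between 0.159% and 1.75% of the counts of a library.

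The libraries are RNA-seq of sorted cancer cells; the mice had a mixed BL6/129 strain background and carried lung tumours. There were 4 KT libraries, 3 KT;Lkb1f/f libraries with floxed Lkb1 (gene symbol Stk11), and 5 libraries from KT mice with the H11LSL-Cas9 allele and guide RNAs against Sik genes, of which 3 were titled sgSik1 and 2 sgSik1-3. Totals ran from 3847760 to 13955181 counts per library, and levels are given as CPM, counts scaled to a common library size by the TMM method. The labels do not spell out KT. The KT background is shared by all 4 kinds of tumour. H11LSL-Cas9 is a Cas9 gene at the H11 locus that is silent until Cre removes a stop cassette. Only the Sik-targeted libraries are labelled with it, so the effect of Cas9 itself and of the guides cannot be told apart against KT. Age is not labelled, nor is the meaning of the range in sgSik1-3 or whether each library had its own animal. The p values therefore reflect how far libraries of a group spread, and that spread may be technical.

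Cells build saturated fatty acids from acetyl-CoA. Acaca, acetyl-CoA carboxylase, makes the malonyl-CoA that Fasn, fatty acid synthase, joins into palmitate, and the elongases and desaturases lengthen and unsaturate the product. Sterols start from the same acetyl-CoA through the mevalonate pathway, and SREBP transcription factors, carried by Scap and held back by the Insig proteins when sterols are plentiful, drive genes of both branches. In the lung, alveolar type 2 (AT2) cells make lipid for surfactant, and LKB1 activates both AMPK, which phosphorylates and inhibits acetyl-CoA carboxylase, and the SIK kinases that the guides target.

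The promoters of these genes were searched for 5 short motifs, because many of the genes are textbook SREBP targets and SREBPs bind together with the CCAAT-binding factor NF-Y. RefSeq promoter windows of GRCm38 from 250 bases before to 50 bases after the start were found for 24 of the 31 genes; Fads1, Scd1, Scd2, Fdft1, Fdps, Sqle and Stard4 were not matched. On either strand, CCAAT was present in windows of 20 of the 24 genes (83.3%), against 41.1% of all 27025 genes with a window and 42.5% of the 9391 tested genes with one. A gene counted if any of its windows matched. The 24 genes had 35 windows and all 27025 genes had 32851, so the 24 had more windows per gene and the shares are not wholly alike. The sterol regulatory element TCACNCCAC was found for Hmgcs1 alone, 4.17% of the 24 against 1.44% of all genes and 1.37% of tested genes. The GC box GGGCGG was present for 18 (75% against 38.2% of all genes and 68.2% of tested genes), CACGTG for 4 (16.7% against 8.09% and 11.6%), and TGACGTCA, a CREB site, for Elovl5 alone (4.17% against 2.03% and 3.6%). A match is a description of the letters in the window. The stretches below show the motif in capitals for the sterol regulatory element, for 2 genes whose level changed in Sik-targeted cells (Elovl1 and Pmvk), and for Fasn and Insig1, which did not pass the test. They lie upstream of the start at chr13:119690204-119690232 on the plus strand (Hmgcs1), chr4:118428048-118428072 plus (Elovl1), chr3:89454395-89454419 plus (Pmvk), chr11:120824595-120824619 minus (Fasn) and chr5:28071186-28071210 plus (Insig1, where ATTGG is CCAAT on the other strand).
Hmgcs1: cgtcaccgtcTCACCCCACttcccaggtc
Elovl1: ggccagccgcCCAATcagcaggcgc
Pmvk: ctcaggttggCCAATtcacagcatc
Fasn: gcctcggtgtCCAATtggtttcgat
Insig1: ccctcctcccATTGGctccggcggc
Of the genes that passed the test in Sik-targeted cells (values further on), Acaca, Elovl1 and Pmvk had a window. Elovl1, which fell, and Pmvk, which rose, hold a CCAAT box, and none was found for Acaca, which fell. The part of these motifs in the changes was not tested.

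Several libraries stand apart from the rest. Genes with counts numbered 23582 and 23747 in KT replicates 2 and 3, while the remaining libraries had 14283 to 16533. Receptors of smell and pheromones with counts numbered 1000 and 1066 in these 2 libraries, while the remaining libraries had 14 to 58. The first sgSik1 library had 74.2% of its counts in the 4 most abundant transcripts, the highest share of the 12 libraries (range from 18.4%), and it differed from the other Sik-targeted libraries by GC content: the fifth of tested genes lowest in GC had a median log2 deviation of -1.07 and the fifth highest in GC had 1.28. The targeted genes check the labels in part. Stk11 was lower in the 3 Lkb1-deleted libraries (9.23, 16.6 and 9.92 CPM) than in every KT library (30.98 to 44.7), which did not pass the test (adjusted p 0.16). Sik3 fell in Sik-targeted cells by 1.33 on the log2 scale (adjusted p 0.0209), whereas Sik1 (2.24, adjusted p 0.0078) and Sik2 (1.22, adjusted p 0.0328) rose; transcript level does not show whether a guide cut its target.

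**Figure D1:**
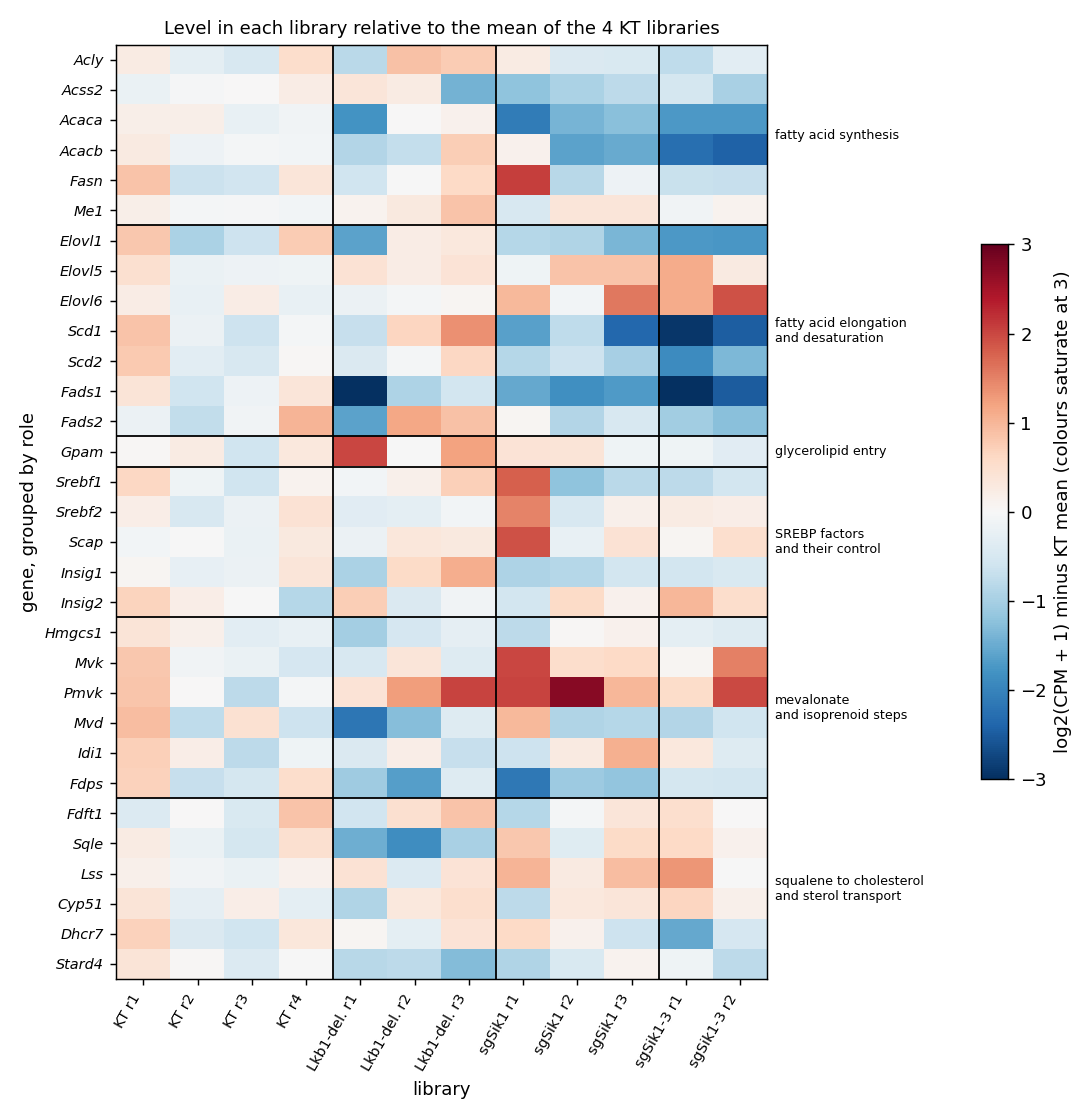
Heatmap of log2(CPM + 1) of the 31 genes (rows, grouped by role) in the 12 libraries (columns, grouped by genotype and guide title), each relative to the mean of the 4 KT libraries. Blue is lower and red higher than KT. Acaca, Scd1, Scd2 and Fads1 are blue in all 5 Sik-targeted libraries, and the first sgSik1 library is red for Fasn, Srebf1, Srebf2, Scap and Mvk.

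In Sik-targeted cells, 4 of the 7 genes of fatty acid elongation and desaturation fell relative to KT (Scd1, Scd2, Fads1 and Elovl1), and so did Acaca at the entry to fatty acid synthesis, by 2.25- to 4.51-fold. Of the 12 genes from Hmgcs1 to Stard4 that make or move sterols, Pmvk alone passed the test, and it rose 3.4-fold. None of the 5 SREBP factors and controls passed the test. In all, 6 of the 31 genes passed (edgeR quasi-likelihood F test, Benjamini-Hochberg adjusted p under 0.05 over all genes tested), where 12.4% of all 13575 tested genes passed, 5.81% as higher and 6.56% as lower. The 5 that fell, all of them among the 13 genes of the 2 fatty acid lists, and the 1 that rose can be read against those shares. The median log2 change was -0.04 over the 31 genes and -0.03 over all tested genes. By role the medians were -1.17 for elongation and desaturation, -0.65 for fatty acid synthesis, 0.34 for the SREBP group, -0.01 for the mevalonate steps and 0.08 for squalene to cholesterol.

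Acaca (chr11:84129672-84401651, plus strand, GRCm38) encodes acetyl-CoA carboxylase 1, the committed step of fatty acid synthesis. The KT libraries measured 73.2, 73.4, 55.5 and 59.8 CPM, the sgSik1 libraries 14.5, 24.2 and 26.5, and the sgSik1-3 libraries 18.9 and 19.0. Every Sik-targeted library was below every KT library. The mean was 65.5 ± 9.2 CPM in KT (SD, n = 4) and 20.6 ± 4.76 in Sik-targeted cells (SD, n = 5). The log2 change was -1.66 ± 0.36 (SE; adjusted p 0.0102), and no single library removed the call. The Lkb1-deleted libraries measured 18.0, 65.8 and 71.3 CPM: the first lay in the Sik-targeted range and the other 2 in the KT range.

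Fads1 (chr19:10182888-10196877, plus strand), the delta-5 desaturase that makes arachidonic and eicosapentaenoic acid, measured 82.8, 41.7, 57.0 and 81.1 CPM in KT. It measured 21.3, 16.9 and 18.7 CPM in sgSik1 and 5.20 and 10.3 CPM in sgSik1-3. The groups did not overlap, and the 2 sgSik1-3 libraries were below the 3 sgSik1 libraries. The log2 change in Sik-targeted cells was -2.17 ± 0.49 (SE; adjusted p 0.0122), and this call too held without any single library. In Lkb1-deleted libraries Fads1 measured 6.56, 32.8 and 43.2 CPM, overlapping KT (log2 change -1.26, adjusted p 0.346).

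Scd1 (chr19:44394455-44407879, minus strand), stearoyl-CoA desaturase 1, puts the first double bond into palmitate and stearate to give palmitoleate and oleate, and was the most abundant of the 31 genes per length in KT. It measured 6924, 3416, 2498 and 3652 CPM in KT, 1229, 2252 and 754 CPM in sgSik1, and 508 and 693 CPM in sgSik1-3. All 5 Sik-targeted libraries were below the KT range, with the second sgSik1 library close to the lowest KT library. The log2 change was -1.92 ± 0.51 (SE; adjusted p 0.0251). The call was lost without KT replicate 1 or 2, sgSik1 replicate 3 or either sgSik1-3 library (adjusted p up to 0.118 over all alternatives). Lkb1-deleted libraries measured 2383, 5970 and 9836 CPM, the last above every KT library.

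Scd2 (chr19:44293674-44306864, plus strand) encodes a second stearoyl-CoA desaturase. It measured 749, 351, 310 and 444 CPM in KT, 239, 282 and 218 CPM in sgSik1, and 118 and 170 CPM in sgSik1-3, again without overlap. The log2 change was -1.17 ± 0.35 (SE; adjusted p 0.0422). The call was lost without any KT library, Lkb1-deleted replicate 2, sgSik1 replicate 3 or either sgSik1-3 library (adjusted p up to 0.131). The coding sequences of Scd1 and Scd2 are 90.3% identical, with an identical run of 147 bases, longer than the reads, so how reads were split between them is uncertain. Scd2 in Lkb1-deleted libraries (324, 418 and 667 CPM) lay in the KT range.

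Elovl1 (chr4:118428093-118432953, plus strand), an elongase of very long-chain fatty acids, measured 523, 155, 195 and 509 CPM in KT. It measured 166, 159 and 116 CPM in sgSik1 and 90.7 and 88.5 CPM in sgSik1-3. KT replicates 2 and 3 lay close to the sgSik1 libraries and the groups overlapped, while KT replicates 1 and 4 were far above. The log2 change was -1.48 ± 0.45 (SE; adjusted p 0.0424). The call was lost without KT replicate 1, 3 or 4, sgSik1 replicate 3 or either sgSik1-3 library (adjusted p up to 0.179). With all libraries kept it was also lost under limma-voom and under a block on replicate number. Lkb1-deleted libraries measured 97.2, 353 and 374 CPM.

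Pmvk (chr3:89454541-89469013, plus strand), phosphomevalonate kinase, which adds the second phosphate to mevalonate, was the only gene of the 31 that passed the test as higher. It measured 93.5, 52.5, 29.6 and 49.9 CPM in KT, 214, 352 and 106 CPM in sgSik1, and 77.0 and 209 CPM in sgSik1-3. The first sgSik1-3 library fell inside the KT range and the other 4 Sik-targeted libraries were above it. The log2 change was 1.77 ± 0.48 (SE; adjusted p 0.0279). The call was lost without KT replicate 2, 3 or 4, sgSik1 replicate 1 or sgSik1-3 replicate 2 (adjusted p up to 0.317). In Lkb1-deleted libraries Pmvk measured 69.7, 125 and 216 CPM, the first inside the KT range, and its log2 change of 1.28 ± 0.52 (SE) did not pass (adjusted p 0.286).

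**Figure D2:**
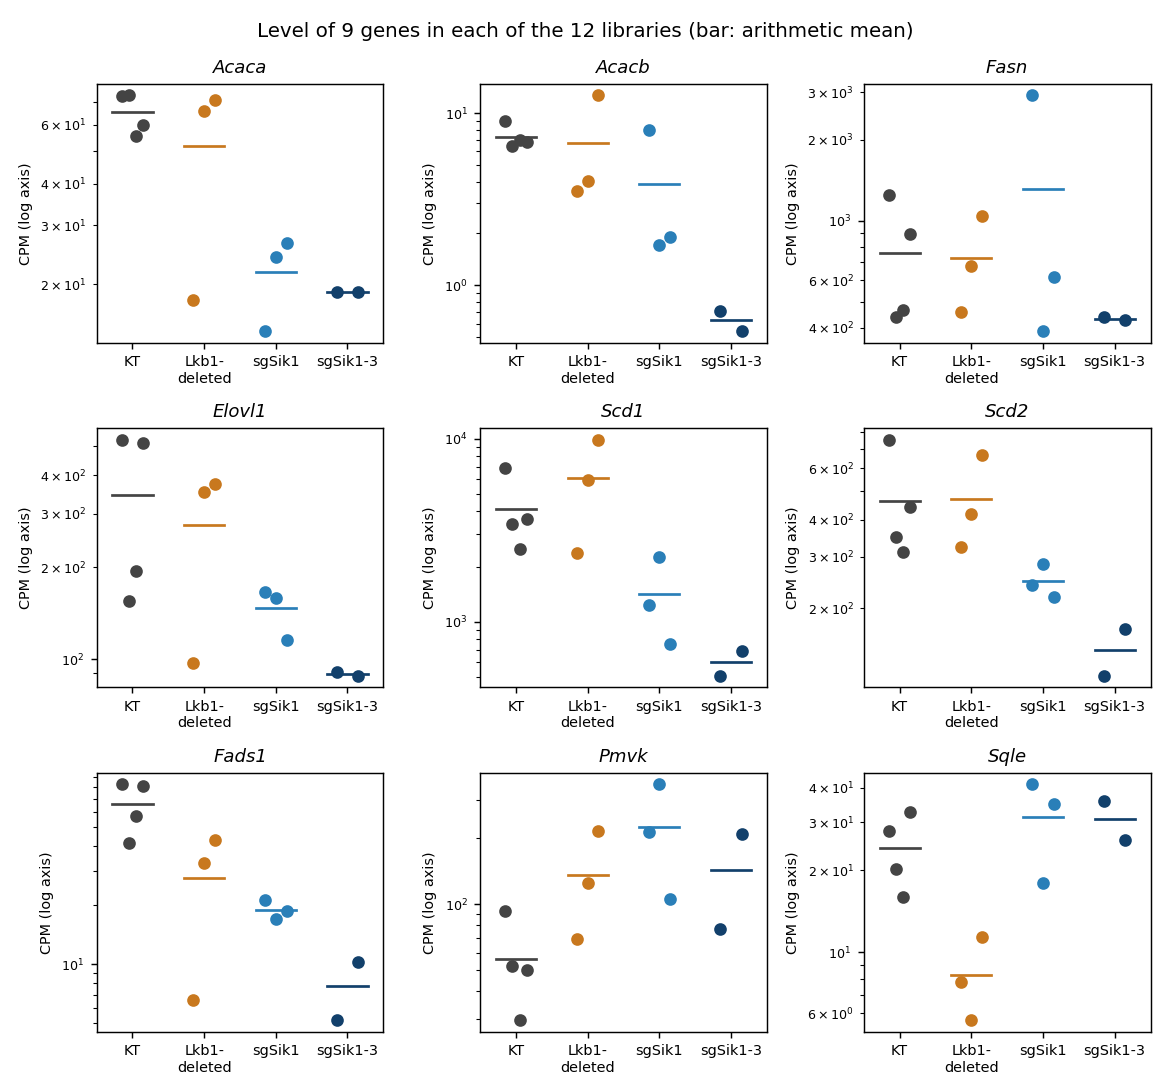
CPM (log axis) of 9 genes in each library, by group (KT n = 4, Lkb1-deleted n = 3, sgSik1 n = 3, sgSik1-3 n = 2), each point 1 library and the bar the arithmetic mean. Acaca, Scd1, Scd2 and Fads1 show Sik-targeted libraries below all KT libraries, Sqle shows the Lkb1-deleted libraries below all others, and Fasn shows the first sgSik1 library at 2917 CPM.

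The remaining fatty acid genes did not pass the test in Sik-targeted cells. Acss2, the acetyl-CoA synthetase that uses acetate, measured 18.7, 21.3, 21.9 and 25.5 CPM in KT and 8.81, 10.8, 12.1, 14.6 and 10.5 CPM in the 3 sgSik1 and 2 sgSik1-3 libraries. These did not overlap, with a log2 change of -0.94 ± 0.35 (SE; adjusted p 0.0917). Elovl6, which elongates palmitate to stearate, was scarce in KT at 0.944, 0.447, 0.964 and 0.424 CPM and measured 2.27, 0.569, 3.98, 2.60 and 5.25 CPM in Sik-targeted libraries. All Sik-targeted libraries but the second sgSik1 library were above KT (log2 change 2.05 ± 0.67, SE, adjusted p 0.0553), on counts of 2 to 12 per KT library. Acly, ATP citrate lyase, Me1, malic enzyme, and Elovl5, an elongase of polyunsaturated fatty acids, had log2 changes of -0.37, 0.08 and 0.63 with adjusted p of 0.541, 0.89 and 0.179. Fads2, the delta-6 desaturase, had -0.90 with adjusted p 0.32. Gpam, which attaches the first acyl chain to glycerol 3-phosphate, measured 7.39 to 14.9 CPM in KT and 9.05 to 15.9 CPM in Sik-targeted libraries, a log2 change of 0.03 ± 0.39 (SE).

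The sterol genes other than Pmvk did not pass either. Fdps, farnesyl diphosphate synthase, measured 34.5, 12.7, 14.4 and 30.6 CPM in KT, 3.98, 9.39 and 8.73 CPM in sgSik1 and 14.2 and 14.1 CPM in sgSik1-3, so only sgSik1 was below all KT libraries (log2 change over all Sik-targeted libraries -1.18, adjusted p 0.084). Fdps shares 26.7% of its exon bases with a gene model on the same strand, and Fdft1 shares 18.3% with Ctsb on the opposite strand, so their counts are uncertain where reads fall there. Lss, lanosterol synthase, had a log2 change of 0.82 with adjusted p 0.127 and Mvk, mevalonate kinase, 1.28 with adjusted p 0.15. Hmgcs1, which makes HMG-CoA, Mvd, Idi1, Fdft1, Sqle, Cyp51, Dhcr7 and Stard4 had log2 changes between -0.52 and 0.37. Insig1, the sterol-regulated anchor of Scap, was lower in every Sik-targeted library (18.8, 19.9, 24.6, 24.6 and 26.4 CPM) than in every KT library (38.4, 30.7, 32.7 and 47.3 CPM), with a log2 change of -0.70 ± 0.35 (SE; adjusted p 0.202). In all, 6 of the 31 genes had Sik-targeted libraries wholly below KT (Acss2, Acaca, Scd1, Scd2, Fads1 and Insig1) and none wholly above. Of all 13575 tested genes, 1193 lay wholly below and 994 wholly above, 16.1% in either direction.

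Srebf1 and Srebf2, which encode the SREBP factors, and Scap show how far 1 library carries this comparison. Srebf1 measured 72.5, 43.2, 30.9 and 50.7 CPM in KT, 166 CPM in the first sgSik1 library and 19.8 to 31.9 CPM in the other 4 Sik-targeted libraries. Srebf2 measured 121 CPM in that library and 30.2 to 50.6 CPM in the other 4, and Scap 88.1 and 19.5 to 32.6 CPM. Fasn measured 2917 CPM there and 388 to 616 CPM in the other 4, against 437 to 1246 CPM in KT. The 8 members in the fifth of tested genes highest in GC content (56.3% to 59.1%: Acacb, Fasn, Srebf1, Srebf2, Scap, Mvk, Mvd and Pmvk) were all higher in the first sgSik1 library than the mean of the other 4 Sik-targeted libraries, with a median log2 difference of 1.75. Of the 23 members of lower GC, 10 were higher and the median was -0.33. The part of GC content in these levels was not tested, beyond an offset for GC content that was added after seeing the data: with it, Acaca, Elovl1, Scd1, Scd2, Fads1 and Pmvk kept their calls, Acacb (log2 change -1.97, adjusted p 0.0201) and Elovl6 (2.28, adjusted p 0.0352) passed as well, and the median over the 31 genes was -0.21. Without the first sgSik1 library the median was -0.34 and Acacb passed (-2.50, adjusted p 0.0123), while Pmvk did not (1.71, adjusted p 0.0509).

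**Figure D3:**
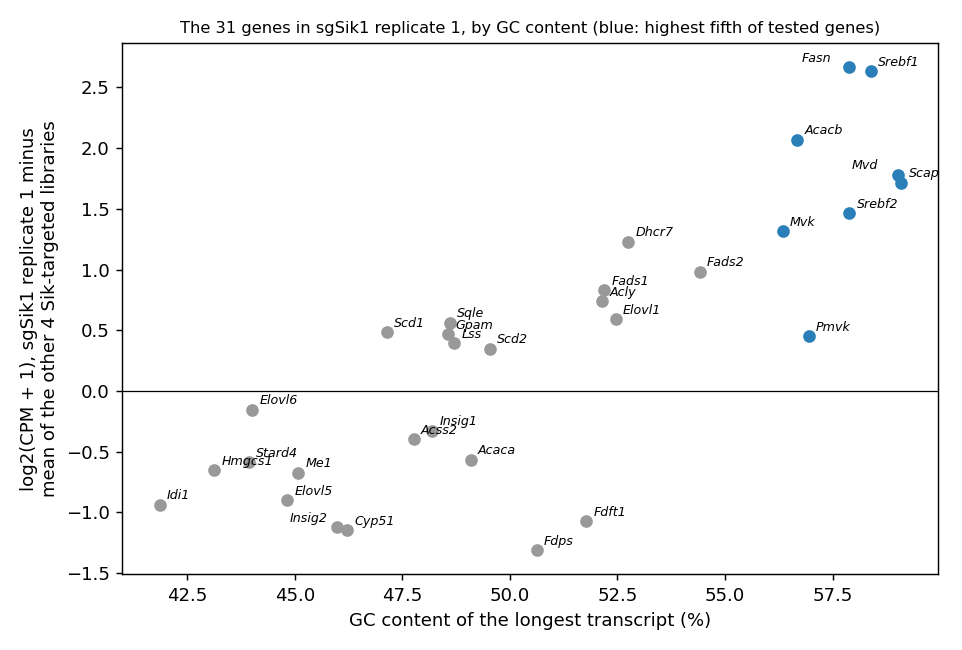
Difference in log2(CPM + 1) between the first sgSik1 library and the mean of the other 4 Sik-targeted libraries (vertical axis) against GC content of the longest transcript in percent (horizontal axis), 1 point for each of the 31 genes. The 8 genes in the fifth of tested genes highest in GC (blue) all lie above 0, from 0.45 for Pmvk to 2.66 for Fasn.

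The 4 title groups were fitted together to set sgSik1 and sgSik1-3 each against KT, which share the 4 KT libraries. In sgSik1, Pmvk rose 4.04-fold (log2 change 2.01 ± 0.52, SE, adjusted p 0.041), 1 of 31 genes where 3.84% of 15303 tested genes passed and 2.71% passed as higher. In sgSik1-3, Fads1 fell 8.3-fold (-3.05 ± 0.67, SE, adjusted p 0.0255), Scd1 fell 6.79-fold (-2.76 ± 0.69, SE, adjusted p 0.0417) and Acacb fell by 3.51 on the log2 scale (SE 0.88, adjusted p 0.0436). That is 3 of 31 genes where 2.89% of tested genes passed and 1.15% passed as lower. Acacb, the mitochondrial-surface acetyl-CoA carboxylase whose malonyl-CoA restrains fatty acid oxidation, measured 8.97, 6.48, 6.99 and 6.79 CPM in KT and 0.709 and 0.543 CPM in sgSik1-3, which is 3 counts in each of these 2 libraries. In sgSik1 it measured 7.96 CPM in the first library and 1.71 and 1.91 CPM in the others, and in Lkb1-deleted libraries 3.52, 4.01 and 12.7 CPM. The sgSik1-3 libraries were thus below all other libraries for Acacb. The corresponding changes in sgSik1 were -1.77 for Fads1 (adjusted p 0.0676), -1.52 for Scd1 (adjusted p 0.121) and -0.97 for Acacb (adjusted p 0.352), and the change of Pmvk in sgSik1-3 was 1.36 (adjusted p 0.19). The calls in sgSik1-3 rest on few libraries: each of the 3 was lost when either sgSik1-3 library or any KT library was left out, except Fads1 without KT replicate 2. With all libraries, each was also lost under a block on replicate number, and that of Acacb under limma-voom. The call of Pmvk in sgSik1 was lost without sgSik1 replicate 1 or 2 or KT replicate 2, 3 or 4. With all libraries it was also lost under that block, under the GC offset (1.88, adjusted p 0.0531) and under upper-quartile normalization (1.87, adjusted p 0.0565). Their adjusted p over all alternatives reached 0.278 for Fads1, 0.365 for Scd1, 0.309 for Acacb and 0.467 for Pmvk.

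The difference between sgSik1-3 and sgSik1 was tested directly. None of the 31 genes passed, and 0% of 15303 tested genes did. Over all genes 528 had an unadjusted p under 0.05, among them 2 members, Acacb (log2 difference -2.54 ± 0.90, SE) and Fasn (-1.60 ± 0.75, SE). Without the first sgSik1 library these differences were -1.51 for Acacb and -0.20 for Fasn, so that of Fasn rests on this library. DESeq2 called none of the 31 either. The 2 sgSik1-3 libraries were below all 3 sgSik1 libraries for 5 of the 7 elongation and desaturation genes (Elovl1, Scd1, Scd2, Fads1 and Fads2), for Acacb and for Gpam, and above them for Fdps, where 14.9% of all tested genes had no overlap. The median log2 difference was -0.35 over the 31 genes and -0.14 over all genes.

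**Figure D4:**
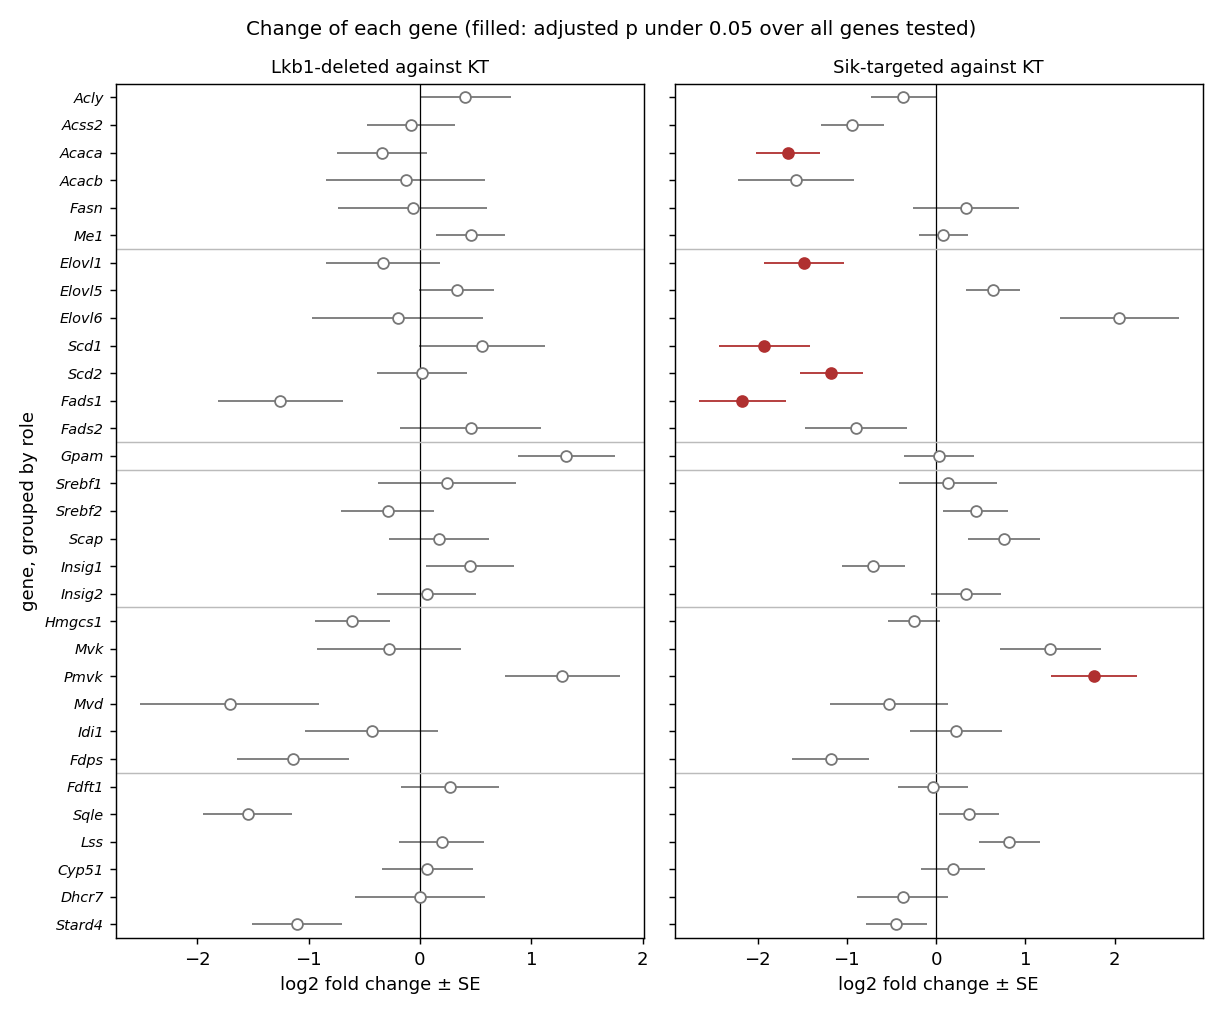
Log2 fold change ± SE of each of the 31 genes (rows, grouped by role) for Lkb1-deleted against KT (left) and Sik-targeted against KT (right), with filled red points where the adjusted p over all genes tested was under 0.05. The right panel has 6 filled points, Pmvk above 0 and Acaca, Elovl1, Scd1, Scd2 and Fads1 below, and the left panel has none.

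With Lkb1 deleted, no gene of the 31 passed against KT, where 1.16% of tested genes passed. At an unadjusted p under 0.05 there were 7 members, where 1782 of all 13575 tested genes had one: Sqle, Stard4, Fdps, Fads1 and Mvd were lower and Gpam and Pmvk higher. DESeq2 called 1 member, Sqle, and 553 of the 13575 genes. The median log2 change was -0.00 over the 31 genes, -0.06 over the 13 fatty acid genes and -0.36 over the 12 sterol genes, against -0.04 over all tested genes. Only Sqle and Stard4 had Lkb1-deleted libraries wholly apart from KT, where 14.7% of tested genes did.

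Sqle, squalene epoxidase, a rate-limiting enzyme of the late sterol pathway, measured 27.8, 20.2, 15.9 and 32.7 CPM in KT and 7.78, 5.66 and 11.4 CPM in Lkb1-deleted libraries. In Sik-targeted libraries it measured 41.2, 17.9, 34.9, 35.9 and 25.7 CPM, in the KT range or above it. All 3 Lkb1-deleted libraries were below all 9 others. The log2 change against KT was -1.55 ± 0.40 (SE), 2.92-fold, with adjusted p 0.0852. Stard4, a cytosolic sterol carrier, measured 14, 10.6, 7.63 and 10.4 CPM in KT and 5.47, 5.66 and 3.67 CPM in Lkb1-deleted libraries (log2 change -1.10, adjusted p 0.23), and 5.12 to 11.2 CPM in Sik-targeted libraries. Gpam measured 11.96, 14.1, 7.39 and 14.9 CPM in KT and 49.7, 11.6 and 28.5 CPM in Lkb1-deleted libraries. The second of these was inside the KT range and the other 2 above it (log2 change 1.31, adjusted p 0.179). Fdps measured 9.6, 5.97 and 15.8 CPM in Lkb1-deleted libraries (-1.14, adjusted p 0.339), and Mvd, mevalonate diphosphate decarboxylase, 0.364, 1.54 and 3.67 CPM against 2.61 to 10.7 CPM in KT (-1.71, adjusted p 0.379).

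The first Lkb1-deleted library differed from the other 2 over the fatty acid genes. It was the lowest of the 3 for 11 of these 13 genes (Acaca, Elovl1, Fads1 and Fads2 among them), for 4 of the 5 SREBP genes and for 6 of the 12 sterol genes. It was the highest for 5 of the 31 genes: Acss2, Elovl5, Gpam, Insig2 and Lss. Its mean log2(CPM + 1) over elongation and desaturation genes was 5.53, against 6.73 and 6.996 in the other 2 and 6.10 to 7.03 in KT. AT2 markers were lower there too: their mean was 8.62, against 9.97 and 10.03. Epithelial markers were higher, with a mean of 8.20 against 7.32 and 7.29. Endothelial markers summed to 0.85 CPM there and to 142 and 57.5 CPM in the other 2, and fibroblast markers to 1.34 CPM against 337 and 73.1 CPM. The part of these cell types was not tested. This difference between libraries of 1 group was described after the values were seen and was not tested.

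Set against each other, Lkb1-deleted and Sik-targeted libraries had no gene of the 31 past the threshold, where 0.221% of tested genes passed. At an unadjusted p under 0.05 there were 11 members, where 1723 of all 13575 tested genes had one. DESeq2 called 3 members (Acaca, Scd1 and Sqle) and 345 of the 13575 genes. Sqle was lower in every Lkb1-deleted library than in every Sik-targeted library (log2 difference -1.92 ± 0.40, SE, adjusted p 0.059). Scd1 (2.48 ± 0.54, SE, adjusted p 0.0727) and Scd2 (1.19 ± 0.38, SE, adjusted p 0.21) were higher in every Lkb1-deleted library. These were the 3 genes without overlap, where 5.38% of all tested genes had none. Acaca differed by 1.32 (adjusted p 0.169) and Insig1, at 18.5, 54.8 and 79.0 CPM in Lkb1-deleted libraries, by 1.15 (adjusted p 0.225). Elovl6, at 0.486, 0.617 and 0.735 CPM with Lkb1 deleted, differed by -2.25 (adjusted p 0.232) and Acss2, at 28.4, 25.8 and 7.53 CPM, by 0.86 (adjusted p 0.366). Without the first Lkb1-deleted library, Acaca, Scd1, Fads2, Insig1 and Sqle passed, 5 in all. Calls over all genes rose with that removal too, to 710 of 15260 tested genes from 30 of 13575. The median difference was 0.92 over the 13 fatty acid genes and -0.56 over the 12 sterol genes, against -0.02 over all tested genes. These are descriptions of the lists, with no test.

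Genes of other cell identities moved in the same comparisons. The mean log2(CPM + 1) of 12 AT2 markers was 9.72 to 10.9 in KT, 8.62 to 10.03 in Lkb1-deleted and 7.74 to 9.26 in Sik-targeted libraries. Of the 12, 6 fell in Sik-targeted cells (Etv5, Cxcl15, Lpcat1, Lamp3, Sftpc and Slc34a2), among them Sftpc, surfactant protein C, by 3.98 on the log2 scale, and none were at 0 in any library. The keratins Krt8, Krt18, Krt19 and Krt7 rose by 1.94 to 2.71, 4 of 7 epithelial markers. The 12 macrophage markers summed to 85.9 to 1134 CPM in KT, 4.41 to 9.36 CPM in Lkb1-deleted and 4.55 to 14.4 CPM in Sik-targeted libraries; 4 to 8 of them were at 0 in each Lkb1-deleted library, 4 to 7 in each Sik-targeted library and 0 to 3 in each KT library, and 7 of 8 tested fell with Sik targeting. Fibroblast markers summed to 17.8 to 296 CPM in KT, 1.34 to 337 CPM in Lkb1-deleted and 12.6 to 36.9 CPM in Sik-targeted libraries. In Sik-targeted cells all 3 club cell markers, 1 of 2 leukocyte markers tested and 1 of 5 fibroblast markers tested fell. Of 5 endothelial and 4 AT1 markers 0 passed the test, and no erythroid marker passed the filter. With Lkb1 deleted, 5 of 8 macrophage markers, 1 of 2 leukocyte markers and 1 of 3 club cell markers fell. No AT2, epithelial, AT1, endothelial or fibroblast marker passed the test. All 7 epithelial markers had positive log2 changes, 3 of them wholly above KT, and all 5 endothelial markers had positive changes with overlap. Of 4 AT1 markers 3 had negative changes and 1 positive, and 2 lay wholly below KT. Of 12 AT2 markers 10 had negative changes and 2 positive, and of 5 fibroblast markers 3 and 2. In sorted pools, fewer cells of a type and less RNA per cell cannot be told apart, and the part of these cell types in the changes of lipid genes was not tested. When KT replicates 2 and 3 were left out, none of the 31 genes passed in Sik-targeted cells. Over all genes 98 of 13252 tested passed then, against 1679 of 13575 with all libraries. The log2 changes without these 2 libraries were -1.69 for Acaca, -2.52 for Fads1, -2.29 for Scd1, -1.55 for Scd2, -2.08 for Elovl1 and 1.41 for Pmvk. Their adjusted p ran from 0.0552 to 0.311.

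**Figure D5:**
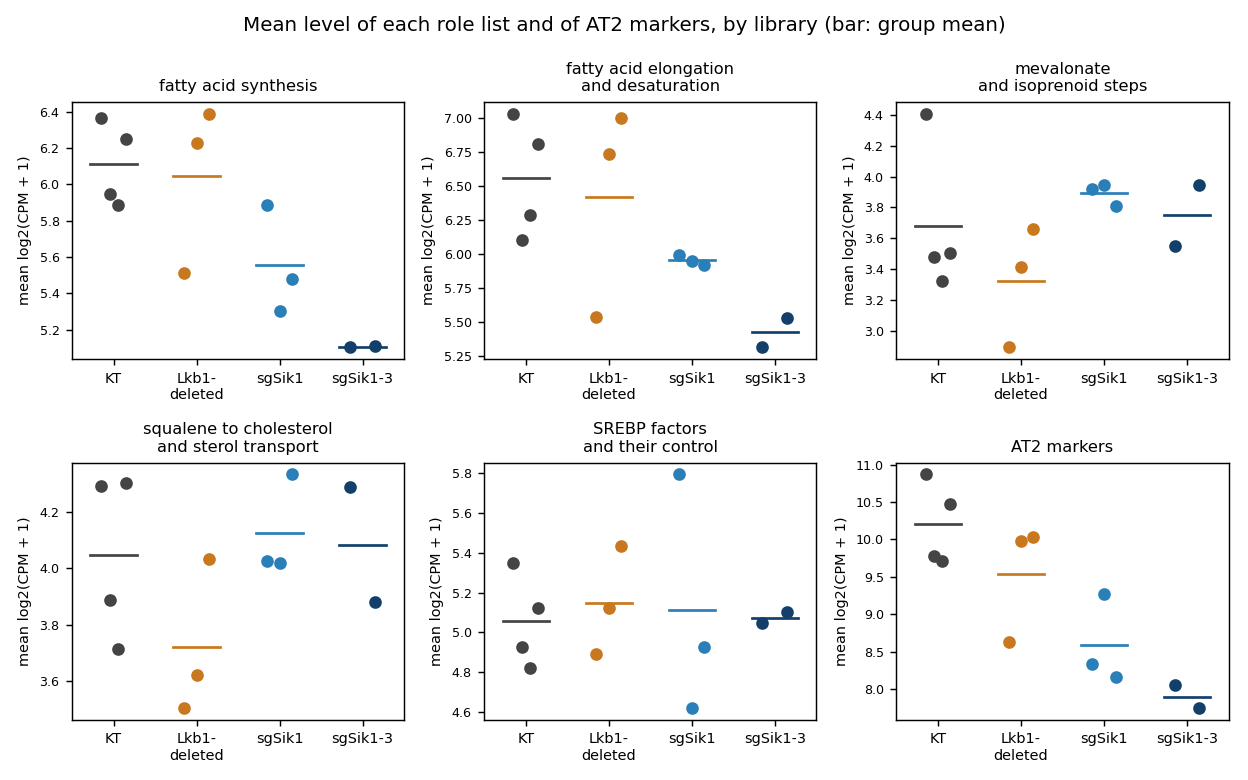
Mean log2(CPM + 1) of 5 role lists of the 31 genes and of 12 AT2 markers (vertical axes, scales differ) in each library, by group, with the bar at the group mean. The elongation and desaturation list lies at 5.31 to 5.99 in the 5 Sik-targeted libraries, below the KT range of 6.10 to 7.03, and AT2 markers lie at 7.74 to 9.26 against 9.72 to 10.9.

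Compared per length, as CPM per kilobase of exon, the order of levels in KT was Scd1 (843), Elovl1 (127), Scd2 (84.8), Fasn (69.3), Elovl5 (37.0) and Pmvk (32.9), with Acacb (0.759) and Elovl6 (0.108) last. Scd1 exceeded the next gene by more than its SD between KT libraries (395), whereas Elovl1 lay above Scd2 and Fasn by less than its own SD (72.5). In Sik-targeted libraries Scd1 was still highest at 222. Pmvk was at 112, Elovl5 at 57.3, Elovl1 at 45.5 and Scd2 at 37.6. Fasn was at 87.4, a mean that rests on the first sgSik1 library, so its place in the order is uncertain.

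Other genes of these pathways were set beside the 31. In Sik-targeted cells 12.4% of all 13575 tested genes passed, 5.81% as higher and 6.56% as lower. The counts here and in the next paragraph can be read against those shares. Of 28 further fatty acid genes, 22 were tested and 3 fell in Sik-targeted cells with none rising: Mid1ip1, Hacd3 and Lpin1. Mid1ip1, which promotes polymerization and activity of acetyl-CoA carboxylase, measured 196, 44.8, 51.4 and 72.4 CPM in KT, 12.1, 15.2 and 33.8 CPM with Lkb1 deleted, and 7.11, 10.96 and 4.20 CPM in sgSik1, with 6.38 and 4.89 CPM in sgSik1-3. All Sik-targeted libraries were below all others, at a log2 change of -3.77 ± 0.50 (SE; adjusted p 0.000832), and the change with Lkb1 deleted was -2.16 (adjusted p 0.0836). Hacd3 (listed under the older symbol Ptplad1), a dehydratase of the elongation cycle, fell by 1.38 and Lpin1, a phosphatidate phosphatase, by 1.31. Of 12 further sterol genes tested 2 rose and none fell. Hsd17b7, a reductase of cholesterol synthesis, was 1 of those that rose (1.32, adjusted p 0.043).

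Among 12 tested genes of SREBP and LXR control, Mylip, the LXR-induced ligase that degrades the LDL receptor, fell (-1.96, adjusted p 0.0253) and Pparg, a nuclear receptor for fatty acids, rose (2.17, adjusted p 0.0316). None of 17 fatty acid oxidation genes passed in edgeR's test. The 2 with an unadjusted p under 0.05 were Pdk4 (-2.84, adjusted p 0.0712) and Ppara (-1.10, adjusted p 0.149). Of 11 uptake and storage genes, Lpl, lipoprotein lipase, fell (-4.84, adjusted p 0.00177) and Lipa, lysosomal acid lipase, rose (1.66, adjusted p 0.0278). Lpl is also made by macrophages, whose markers fell in the same comparison, and their part in its change was not tested. With Lkb1 deleted, none of these genes passed against KT. The median log2 changes in Sik-targeted cells were 0.33 for the further fatty acid genes, 0.18 for the further sterol genes, -0.18 for SREBP and LXR control, -0.06 for oxidation and -0.11 for uptake and storage, against -0.03 over all tested genes.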

How the data were processed

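The authors' deposited counts per gene symbol come from STAR 2.4.2a and HTSeq on mm10, per the submitters' processing notes; no annotation or strand setting is named there. Per the labels' protocols, sorting removed hematopoietic and endothelial cells by CD45, CD31, F4/80 and Ter119, and RNA was amplified with the Ovation kit and read as pairs of 100 bases. Amplified reads carry no molecule tags. The test was that of edgeR 4.0.16 (R 4.3.3; TMM, filterByExpr by group, robust quasi-likelihood F test, 2-sided, Benjamini-Hochberg over all genes tested, threshold 0.05). A fit of 3 genotype groups (13575 genes) gave the comparisons of KT, Lkb1-deleted and Sik-targeted libraries, and a fit of 4 title groups (15303 genes) those of sgSik1 and sgSik1-3. All groups share 1 estimate of the spread. The SE is the log2 change over the square root of F. Every pair of libraries within a group differed by more than sampling noise. KT replicates 2 and 3 were the closest pair, with a chi-square of 17.4 relative to its degrees of freedom. The next closest pair, sgSik1-3 replicates 1 and 2, had 42.3. KT replicates 2 and 3 are also the libraries without which none of the 31 genes passed in Sik-targeted cells, where 98 of 13252 tested genes passed. Because the RNA was amplified, this check cannot show whether libraries came from separate animals or preparations. Tests were checked only on simulated counts with a common spread, large planted changes in well-counted genes and no library set apart. That check does not cover smaller changes, low counts or libraries such as the first sgSik1 library.

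The members and lists were chosen with earlier results of these data known. Values in every library are given for members that passed in any comparison, then for those of smallest p up to 14 members; other lists name genes that passed, otherwise the 2 of smallest p. Coding identity came from GENCODE transcripts in place of protein identity, and promoters from RefSeq (GRCm38). GC content was that of the longest GENCODE transcript (87.7% of tested genes had a value). Alternatives were DESeq2, limma-voom, other normalizations and filters, a replicate block, and libraries left out. An offset for GC content and the joint removal of 3 libraries were chosen after seeing the data. A result for 1 gene of the further sterol list is not reported here.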

Additional observations from a re-analysis of the deposited data

Results flagged for a closer look

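Within the KT libraries and the Sik-targeted libraries, the level of each of the 31 genes was searched for a highest or lowest library far from the rest (Dixon's test on log2(CPM + 1)). Of 62 such groups 4 stood out, and chance flags about 1 in 20 groups. Elovl5 was 178 CPM in KT replicate 1, far above the other 3 KT libraries. The other 3 were all in the first sgSik1 library, which was far above the other 4 Sik-targeted libraries for Fasn (2917 CPM), Srebf1 (166 CPM) and Mvd (11.1 CPM). All 3 belong to the fifth of tested genes highest in GC content, and what part GC content has in them was not tested.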

How the results depend on the processing

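No gene named with an unadjusted p under 0.05 changed direction under an alternative. Acaca and Fads1 kept their calls in Sik-targeted cells in 20 of 22 alternatives, including all 12 that left out 1 library, and lost them where KT replicates 2 and 3 were removed. Scd1 and Pmvk kept theirs in 14, Elovl1 in 12 and Scd2 in 11 of 22. With all libraries kept, Scd1, Pmvk, Elovl1 and Scd2 lost theirs under the replicate block, and Elovl1 also under limma-voom. In the counts of members that passed in Sik-targeted cells (6), the replicate block gave 2, removal of KT replicates 2 and 3 gave 0, and removal of these and the first sgSik1 library gave 0, with a median of -0.54; leaving out 1 library gave 2 to 7 members and medians from -0.34 (without the first sgSik1 library) to 0.031. The lowest count, 2, came without sgSik1-3 replicate 2, where 939 of 13578 tested genes passed. Leaving out any KT library, sgSik1 replicate 3 or sgSik1-3 replicate 1 gave 3. Over all genes, calls in the fits that gave 3 ran from 577 of 12907 (without KT replicate 2) to 1125 of 13576 (without sgSik1-3 replicate 1). For Lkb1-deleted against KT (0), DESeq2 gave 1, no filter 1, and leaving out 1 library 0 to 1 (Sqle, without the first sgSik1 library). For Lkb1-deleted against Sik-targeted (0), DESeq2 gave 3, no filter 3, the GC offset 1 (Sqle), and leaving out 1 library 0 to 5 (2 without sgSik1 replicate 2). For sgSik1 (1), DESeq2 gave 5, no filter 4, only the groups compared 3, the GC offset 2 (both lower, without Pmvk), the block 0, removal of KT replicates 2 and 3 gave 0, and the joint removal gave 0 with a median of -0.49; leaving out 1 library gave 0 to 3. For sgSik1-3 (3), DESeq2 gave 6, no filter 5, only the groups compared 6, the block 0, removal of KT replicates 2 and 3 gave 0, and the joint removal 0; leaving out 1 library gave 0 to 6. The cause was not tested. Calls over all genes moved too: in Sik-targeted cells 1679 of 13575 genes passed, 1050 of 13575 with the block, 98 of 13252 without KT replicates 2 and 3 and 102 of 13032 with the joint removal. For Lkb1-deleted against KT they were 158 of 13575, 553 with DESeq2, 846 of 25751 without the filter and 242 of 13517 without the first sgSik1 library. For Lkb1-deleted against Sik-targeted they were 30 of 13575, 345 with DESeq2 and 698 of 25751 without the filter. They were 271 of 13510 without sgSik1 replicate 2 and 710 of 15260 without the first Lkb1-deleted library, and those under the GC offset are not given. For sgSik1 and sgSik1-3 they were 588 and 443 of 15303. Those under the alternatives are not given for these 2, so the member counts there cannot be read as particular to the 31 genes. Replicate numbers are shared between groups. Same-numbered libraries deviated together (correlation over 0.1) in 6 of 15 pairs (-0.41 to 0.22, median 0.075). Differently numbered libraries did so in 10 of 38 pairs (-0.31 to 0.41, median -0.041). The 2 sgSik1-3 libraries deviate from their own mean by opposite amounts, so their correlations mirror each other. Whether the numbers pair libraries therefore cannot be decided from these values, and the lower count under the block stands. Number 4 occurs only in KT, so under the block KT replicate 4 adds nothing to the estimated changes. Low counts limit Acacb, Elovl6, Mvd and Mvk most.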
